A study of Mus musculus with 12 samples.

Results

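The ribbon synapse genes described here are 10 genes whose products build or serve the presynaptic terminal of rods, cones and bipolar cells: Ctbp2, Bsn, Pclo, Rims1, Rims2, Cacna1f, Cacnb2, Unc13b, Stx3 and Slc17a7. They were chosen by symbol, and all 10 were found in each of the 2 deposited FPKM tables among 25124 listed genes. All 10 passed the filter of a mean of at least 0.5 FPKM in both tables. The libraries were poly(A) RNA-seq of whole retinas of wildtype C57BL/6J mice, 12 libraries in 6 groups of 2. In the first table, mice aged 3 or 18 months had the pressure of 1 eye raised to 30 mmHg for 1 h (3mo IOP, 18mo IOP), the untreated contralateral eye was the control (3mo control, 18mo control), and retinas were taken on day 2. In the second table, mice aged 3 months at the start had 4 such elevations given every other week (4xIOP, with the contralateral 4xIOP control) and retinas were taken on day 2 after the last. The control retinas therefore come from animals whose other eye was treated, and the labels do not tie a control library to an IOP library of the same animal. Every group held 2 libraries.

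Photoreceptors and bipolar cells release glutamate continuously and in grades, and they do so at a ribbon, a plate of protein that tethers synaptic vesicles beside the calcium channels of the active zone. The ribbon is built from RIBEYE, a product of the Ctbp2 gene, and is held to the membrane by the large scaffold proteins Bassoon and Piccolo. Channels of the L type, with the pore encoded by Cacna1f, open in the dark and admit the calcium that drives fusion of the vesicles. Syntaxin 3 serves fusion at these terminals, and the vesicles are filled by the vesicular glutamate transporter encoded by Slc17a7. Loss of CACNA1F function in people is a known cause of incomplete congenital stationary night blindness.

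The transcript that stands for each gene in the tables limits what its value can say, and Ctbp2 is the clearest case. Both starts of Ctbp2 are shown because 1 belongs to the model counted and the other to RIBEYE, and those of Cacna1f and Unc13b are shown because these genes were the members called higher in both comparisons of age below. Each line gives the 250 bases before a start from the RefSeq promoter table (GRCm38.p6, the same coordinates as mm10), 5′ to 3′ on the strand of the gene. Capitals mark GGATTA or its reverse complement TAATCC, a core bound by the photoreceptor homeodomain factors CRX and OTX2, searched on both strands.
Ctbp2, start of the counted model (chr7:133081861-133082110, minus strand): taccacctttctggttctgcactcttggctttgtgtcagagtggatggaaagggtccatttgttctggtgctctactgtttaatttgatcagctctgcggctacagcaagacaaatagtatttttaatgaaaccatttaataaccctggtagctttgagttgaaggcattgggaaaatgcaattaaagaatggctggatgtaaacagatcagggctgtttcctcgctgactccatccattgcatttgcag
Ctbp2, start of the RIBEYE transcript (chr7:133015248-133015497, minus strand): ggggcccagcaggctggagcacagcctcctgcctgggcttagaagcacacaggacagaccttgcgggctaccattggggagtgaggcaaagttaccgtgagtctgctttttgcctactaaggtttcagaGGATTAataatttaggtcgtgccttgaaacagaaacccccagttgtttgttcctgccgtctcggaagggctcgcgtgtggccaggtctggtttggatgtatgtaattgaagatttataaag
Cacna1f (chrX:7606853-7607102, plus strand): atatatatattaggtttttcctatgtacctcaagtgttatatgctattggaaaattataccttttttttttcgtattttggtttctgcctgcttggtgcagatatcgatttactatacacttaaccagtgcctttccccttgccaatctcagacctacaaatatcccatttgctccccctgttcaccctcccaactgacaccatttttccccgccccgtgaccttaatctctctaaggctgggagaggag
Unc13b (chr4:43058703-43058952, plus strand): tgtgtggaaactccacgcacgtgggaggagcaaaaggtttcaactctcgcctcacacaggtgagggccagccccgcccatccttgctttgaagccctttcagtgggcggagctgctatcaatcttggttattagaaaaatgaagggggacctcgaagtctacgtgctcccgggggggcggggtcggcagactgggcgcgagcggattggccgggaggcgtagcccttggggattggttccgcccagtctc
Of 11 promoters listed for 9 of the 10 members, only the one before the RIBEYE transcript held the hexamer, beginning 121 bases before the start. Of all 32851 promoters in that table, 6.25% held it. A match of 6 letters is a description of the sequence and no evidence of binding. The promoter of Rims2 was not used here.

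The Ctbp2 row was counted over NM_001347623 (chr7:132987011-133081860, minus strand), a model of 2533 bases. The RIBEYE transcript NM_001170744 has 2964 coding bases for 988 residues, more than the whole counted model. Of its 9 coding exons, 8 are shared with NM_009980, the general form of the gene that encodes the transcriptional co-repressor CtBP2 of 445 residues, and the first exon, with 1687 coding bases, is its own. The exons of the counted model itself were not available, so how much of the first RIBEYE exon it holds is not known. The level given for Ctbp2 below is therefore read as a level of the gene, in which the ribbon form and the co-repressor form could not be told apart. Rims2 was counted over different transcripts in the 2 tables, NM_001256384 in the first (chr15:39659511-39684372, plus strand, 3732 bases, coding for 285 residues) and NM_001256382 in the second (chr15:39198286-39684372, 7375 bases, coding for 1572 residues). The Rims2 values of the 2 tables were not set against each other for this reason. The other members were counted over the same transcript in both tables, and their mm10 positions are given where they are described.

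Library depth lay between 39766233 and 59455052 tags, and the members were covered by between 356 reads (Rims1) and 73331 reads (Slc17a7) in a library. Reads in exons made up between 66.0% and 71.5% of the tags in the first table. In the second they made up 49.6% and 49.7% in 4xIOP control and 44.2% and 53.7% in 4xIOP. The FPKM values are scaled to tags, so this share enters the levels of all genes. The libraries differed in the balance of short and long transcripts. As its measure, the median FPKM of short protein-coding genes (under 1000 bases) was divided by the median of long ones (4000 bases or more), both over genes at 0.5 FPKM or more. The ratio was 3.26 and 8.15 for 3mo control, 6.15 and 5.31 for 3mo IOP, 1.78 and 1.75 for 18mo control, and 1.94 and 2.05 for 18mo IOP, and it lay between 2.01 and 2.87 in the second table. Library 2 of 3mo control therefore stood farthest from the others, and the balance of short and long genes moved with age in the first table. The member results on age in untreated eyes are given below also with the trend on transcript length removed and without that library. The summed level of 10 markers of rods, the most abundant cells of the mouse retina, was between 24250.2 and 28049.7 FPKM in the 3mo libraries and between 13821 and 20443 FPKM in the 18mo libraries. That of 6 Muller glia markers was between 459.8 and 647 FPKM at 3 months and between 936 and 1359 FPKM at 18 months. Neither sum overlapped between the ages, and their part in the results on age was not tested. The summed level of 8 retinal ganglion cell markers was between 326 and 631 FPKM at 3 months and between 31.7 and 89.2 FPKM at 18 months, and that of 6 markers of the retinal pigment epithelium was between 80.9 and 246 FPKM at 3 months and between 2.43 and 8.34 FPKM at 18 months. In whole tissue, fewer cells of a type, less RNA per cell and uneven dissection cannot be told apart. The study concludes that age had no substantial effect on the number of ganglion cells.

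By level per length, the members fell into 3 tiers in the first table. The glutamate transporter gene Slc17a7 had a median of 397 FPKM over the 8 libraries and Stx3 of 271 FPKM, and the ranges of these 2 overlapped. Cacna1f, Cacnb2, Ctbp2, Unc13b and Rims2 followed with medians between 29.6 and 57.4 FPKM, each overlapping its neighbour in the order. The 3 large scaffold genes Pclo, Rims1 and Bsn came last with medians of 6.16, 4.34 and 3.45 FPKM, also overlapping, and separate from the middle tier, whose lowest value was 15.7 FPKM. In the second table Slc17a7 and Stx3 led again with medians of 129 and 118 FPKM, and Rims1, Pclo and Bsn were again the 3 lowest with 6.63, 3.49 and 1.28 FPKM.

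**Figure D1:**
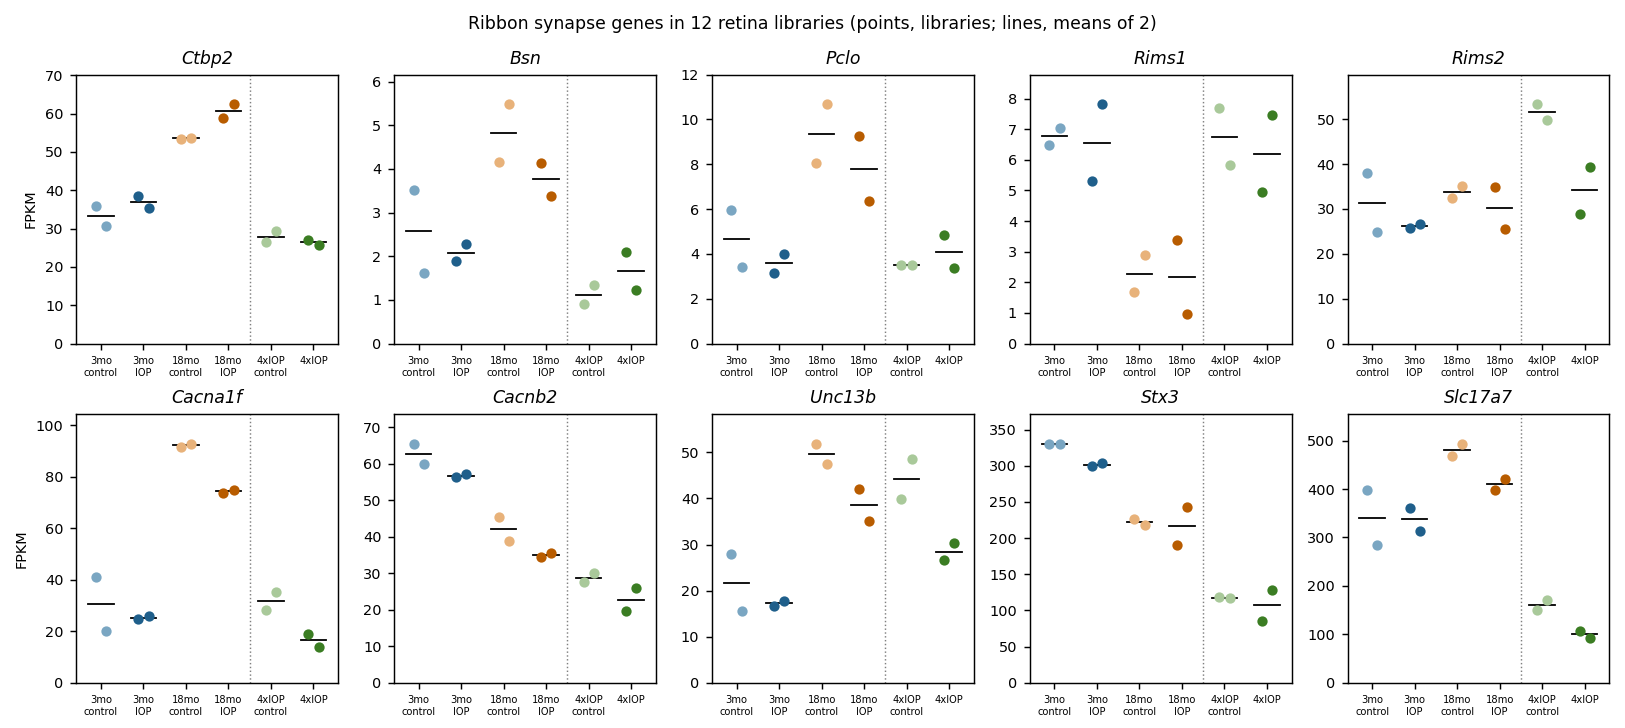
FPKM of each of the 10 genes (y axis, linear from 0) in the 12 libraries (x axis, 6 groups; points are libraries, lines are means of 2), with a dotted line between the separately normalized tables. Cacna1f and Unc13b lie higher in all 18mo libraries than in all 3mo libraries, Rims1 and Cacnb2 lie lower, and Cacna1f, Unc13b, Rims2, Cacnb2 and Slc17a7 lie lower in both 4xIOP libraries than in both of their controls.

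In retinas of untreated eyes, the calcium channel gene Cacna1f and the priming factor gene Unc13b were higher at 18 months than at 3 months, by 3.18-fold and 2.34-fold, and the scaffold gene Rims1 was lower by 2.68-fold. A gene was called at an adjusted p of at most 0.05 (limma on log2(FPKM + 0.5), Benjamini-Hochberg over the 13731 genes tested) with a change of at least 2-fold. By that rule 2 of 10 members were called higher, where 11.6% of all tested genes were, and 1 of 10 was called lower, where 11.6% were. At the adjusted p alone, without a limit on the fold, 4 members were higher and 2 lower, against 26.7% and 19.2% of all tested genes. Both aged libraries lay above both young ones for 6 members, where 45.7% of all tested genes did so, and below them for 3 members, where 32.8% did. The median log2 difference over the 10 members was 0.60, beside 0.16 over all tested genes.

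Cacna1f (NM_019582, chrX:7607103-7635196, plus strand) encodes the pore of the L-type channel of photoreceptor terminals. Its FPKM was 41.0 and 20.01 in 3mo control and 91.6 and 92.9 in 18mo control, so that both aged libraries exceeded both young ones, and the 2 young libraries lay much farther apart than the aged ones. The log2 difference was 1.67 (SE 0.30, 95% interval 0.98 to 2.35, limma adjusted p = 0.00669). Without library 2 of 3mo control it was 1.16 (limma adjusted p = 0.0052), and with the length trend removed it was 1.26 (limma adjusted p = 0.00277). With both changes together it was 0.97 (limma adjusted p = 0.00664), under the 2-fold limit.

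Unc13b (NM_001310758, chr4:43058953-43264873, plus strand) encodes Munc13-2, which primes vesicles for fusion. It measured 27.9 and 15.7 FPKM in 3mo control and 51.9 and 47.5 FPKM in 18mo control, with no overlap. The log2 difference of 1.23 (SE 0.26, limma adjusted p = 0.0098) was 0.81 with the length trend removed (limma adjusted p = 0.00562) and 0.82 without library 2 of 3mo control (limma adjusted p = 0.0132), so it stayed past the adjusted p and lost the 2-fold call in both. Without either of the 18mo control libraries the limma adjusted p was 0.0592 and 0.0555, with differences of 1.17 and 1.29.

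Rims1 (NM_001012625, chr1:22285973-22806003, minus strand) encodes RIM1, a scaffold that links vesicles, Munc13 proteins and calcium channels at active zones of many kinds of synapse. It measured 6.50 and 7.05 FPKM in 3mo control and 1.68 and 2.88 FPKM in 18mo control, again with no overlap. The log2 difference was -1.42 (SE 0.44, 95% interval -2.42 to -0.42, limma adjusted p = 0.03), and -1.84 with the length trend removed (limma adjusted p = 0.0106). It missed the threshold with no filter on low values (limma adjusted p = 0.0688), and with the length trend removed and library 2 of 3mo control left out (-1.56, limma adjusted p = 0.0762). Without any single one of the 4 control libraries the adjusted p was between 0.0645 and 0.152, with the difference between -1.74 and -1.11, and -1.37 without library 2 of 3mo control.

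Of the other scaffold genes among the members, only Pclo passed the adjusted p, to the high side, and Rims2 had no clear direction. Bsn (NM_007567, chr9:108096022-108190383, minus strand), for Bassoon, was 3.52 and 1.62 FPKM in 3mo control and 4.16 and 5.48 FPKM in 18mo control, a log2 difference of 0.85 that missed the threshold (limma adjusted p = 0.0503). It was 1.31 without library 1 of 3mo control (limma adjusted p = 0.00393) and 0.39 without library 2 (limma adjusted p = 0.234). Pclo (NM_001110796, chr5:14514918-14796042, plus strand), for Piccolo, was 5.96 and 3.40 FPKM against 8.03 and 10.7 FPKM, at 0.96 on the log2 scale (limma adjusted p = 0.0299). Without library 2 of 3mo control its difference was 0.59 (limma adjusted p = 0.148), and without single 18mo control libraries its adjusted p was 0.0666 and 0.168. These are the 2 longest transcripts of the group, with 15923 and 16873 bases, and with the length trend removed their differences were 0.46 (limma adjusted p = 0.057) and 0.57 (limma adjusted p = 0.0237). Rims2, for the RIM protein most used at photoreceptor ribbons, was 37.9 and 25.0 FPKM against 32.4 and 35.2 FPKM, and the aged values lay between the young ones. Its log2 difference was 0.13 (95% interval -0.42 to 0.68), -0.09 with the length trend removed and -0.16 without library 2 of 3mo control.

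Ctbp2 measured 35.9 and 30.6 FPKM in 3mo control and 53.5 and 53.8 FPKM in 18mo control. It was higher by 0.68 on the log2 scale (SE 0.17, limma adjusted p = 0.0144), under 2-fold, and by 1.06 under quantile normalization (limma adjusted p = 0.0039). The difference was 0.55 with the length trend removed and 0.57 without library 2 of 3mo control, and its adjusted p was 0.0874 and 0.0969 without single 18mo control libraries. Cacnb2 (NM_001252533, chr2:14824092-14987908, plus strand), for an auxiliary subunit that brings the channel pore to the membrane, was 65.5 and 59.9 FPKM against 45.3 and 38.9 FPKM, a log2 difference of -0.57 (limma adjusted p = 0.0261), and -0.14 under quantile normalization (limma adjusted p = 0.603). It was -0.80 with the length trend removed and -0.63 without library 2 of 3mo control, and without single 18mo control libraries its adjusted p was 0.0844 and 0.201. Its adjusted p was also over 0.05 with the replicate number as a block (limma adjusted p = 0.0523) and with only the 2 groups compared (limma adjusted p = 0.105). Thus Cacnb2 and the pore gene differed in direction in these libraries, with Cacnb2 under 2-fold. Cacna2d4, for another auxiliary subunit of the channel, was called higher, as described below. Stx3 (NM_001025307, chr19:11775118-11819403, minus strand) was 330.4 and 329 FPKM against 226 and 218 FPKM, a log2 difference of -0.57 that missed the threshold (limma adjusted p = 0.0619). It passed with the length trend removed (-0.73, limma adjusted p = 0.00848) and with median-of-ratios size factors (-0.74, limma adjusted p = 0.0443). It also passed with voom (limma adjusted p = 0.0352) and without the eBayes trend (limma adjusted p = 0.0349). Under quantile normalization it turned to 0.07 (limma adjusted p = 0.841), and it was -0.57 again without library 2 of 3mo control. Slc17a7 (NM_182993, chr7:45163921-45176139, plus strand) was 397 and 284 FPKM against 468 and 493 FPKM, a difference of 0.52 that missed the threshold (95% interval -0.07 to 1.10, limma adjusted p = 0.126) and passed it under quantile normalization (1.13, limma adjusted p = 0.0297). It was 0.36 with the length trend removed, 0.76 without library 1 of 3mo control (limma adjusted p = 0.00961) and 0.28 without library 2.

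The IOP retinas gave a second comparison of the ages in libraries from the other eyes. By design these may be eyes of the same animals, and both comparisons shared an estimate of the spread. The comparisons are therefore not independent. There Cacna1f (24.7 and 26.0 FPKM at 3 months, 73.8 and 75.0 FPKM at 18 months), Unc13b (16.7 and 17.8 against 42.0 and 35.1 FPKM) and Pclo (3.17 and 3.99 against 9.26 and 6.35 FPKM) were called higher, and Rims1 (5.31 and 7.81 against 3.37 and 0.955 FPKM) was called lower. That is 3 of 10 members higher, where 10.2% of all tested genes were, and 1 of 10 lower, where 11.6% were. The log2 differences were 1.54 for Cacna1f (limma adjusted p = 0.00873), 1.13 for Unc13b (limma adjusted p = 0.0139), 1.01 for Pclo (limma adjusted p = 0.0272) and -1.55 for Rims1 (limma adjusted p = 0.0246). Ctbp2 was higher by 0.71 (limma adjusted p = 0.0146) and Cacnb2 lower, at -0.68 (limma adjusted p = 0.0163), both under 2-fold. With the length trend removed, Cacna1f (1.07) and Rims1 (-2.03) kept their calls, while Unc13b (0.64) and Pclo (0.49) fell under 2-fold. Pclo was also under 2-fold with a pseudocount of 1 (0.93), median-of-ratios size factors (0.92) and quantile normalization (0.85), and with no filter on low values Pclo and Rims1 missed the threshold (limma adjusted p = 0.0551 and 0.0564). Leaving out either 3mo IOP library ended all 4 calls, and leaving out library 1 or 2 of 18mo IOP left 2 or 3. Rims1 was -0.84 without library 2 of 18mo IOP (limma adjusted p = 0.0957), which ended its call, and -2.26 without library 1.

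**Figure D2:**
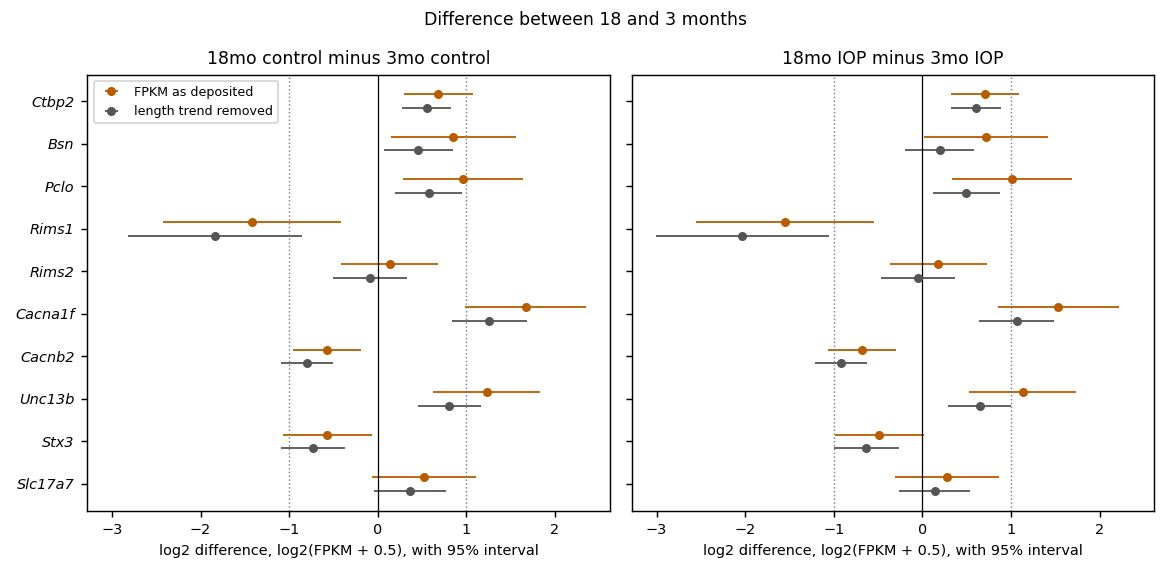
Log2 difference between 18 and 3 months on log2(FPKM + 0.5) (x axis) for each gene (y axis) in control retinas (left) and IOP retinas (right), as deposited (orange) and with the length trend removed (grey); bars are 95% intervals and dotted lines mark 2-fold. Cacna1f stays right of 2-fold and Rims1 left of it on both scales, while Unc13b moves from 1.23 to 0.81 in the control retinas.

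Transcript length and the age difference moved together over all tested genes. The median log2 difference between 18mo control and 3mo control was -0.88 for genes under 1000 bases and 0.49 for the 3873 genes of at least 4000 bases. Of the 5 members with transcripts of at least 4000 bases, Cacna1f (6025 bases), Unc13b (6331 bases), Bsn and Pclo lay above 0.49, and Rims1 (6273 bases) lay far below it. Among genes of at least 4000 bases, 17.9% were called higher and 2.17% lower in this comparison, so the lower call of Rims1 was of the rarer kind for its length. What part uneven coverage had in the age differences was not tested beyond the removal of the trend.

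**Figure D3:**
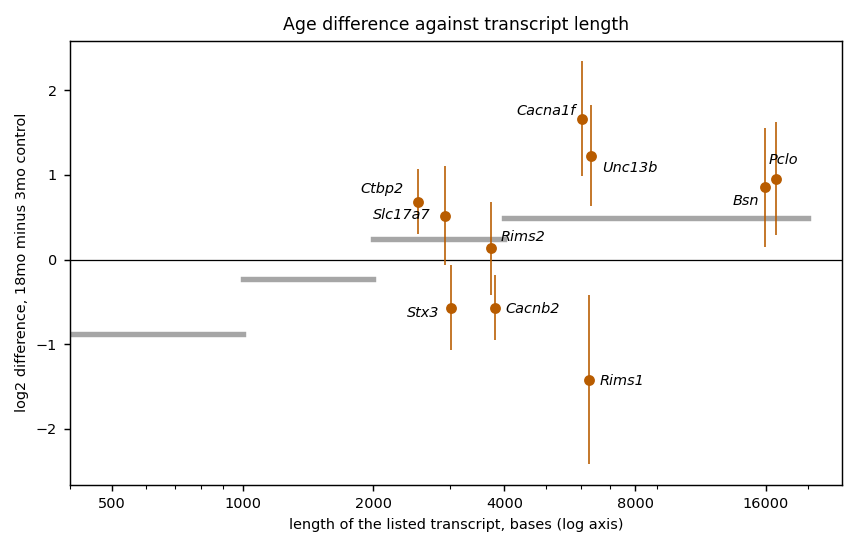
Log2 difference between 18mo control and 3mo control (y axis, bars are 95% intervals) against the length of the counted transcript in bases (log x axis) for the 10 genes; grey lines are the medians of all tested genes in 4 length classes, -0.88 for the shortest and 0.49 for the longest. Rims1 lies at -1.42 beside Cacna1f and Unc13b of nearly the same length, which lie at 1.67 and 1.23.

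Rims1 levels were also set beside those of ganglion cell markers, which were lower at 18 months, as was Cacnb2. Slc17a6, the vesicular glutamate transporter of ganglion cells and a paralogue of Slc17a7, measured 9.19 and 11.1 FPKM in 3mo control, 8.21 and 11.2 FPKM in 3mo IOP, 0.541 and 2.40 FPKM in 18mo control and 2.52 and 0.25 FPKM in 18mo IOP. Within each group of 2, the library with the lower Slc17a6 was also the one with the lower Rims1. Over the whole list, 8 of 8 markers were ordered as Rims1 was within 18mo control, 18mo IOP and 3mo IOP, and 4 of 8 within 3mo control. Any gene can take only 2 orders in a group of 2, and markers of the same cells are not independent of each other. The share of all tested genes ordered as Rims1 was not computed, so these counts are a description only. The 2 aged libraries with the lowest Slc17a6 (18mo control 1 and 18mo IOP 2) had the lowest Rims1 of all 8. In these 2 libraries the summed ganglion cell markers were also lowest, at 35.3 and 31.7 FPKM, against 81.7 and 89.2 FPKM in the other aged libraries. Of the 8 ganglion cell markers 5 were called lower at 18 months in control retinas and 8 in IOP retinas, against 11.6% of all tested genes in each. The sum of 6 amacrine cell markers was 60.7 and 43.0 FPKM in the same 2 libraries and 99.5 and 121 FPKM in the other aged ones. The part of these cells in the Rims1 difference was not tested.

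**Figure D4:**
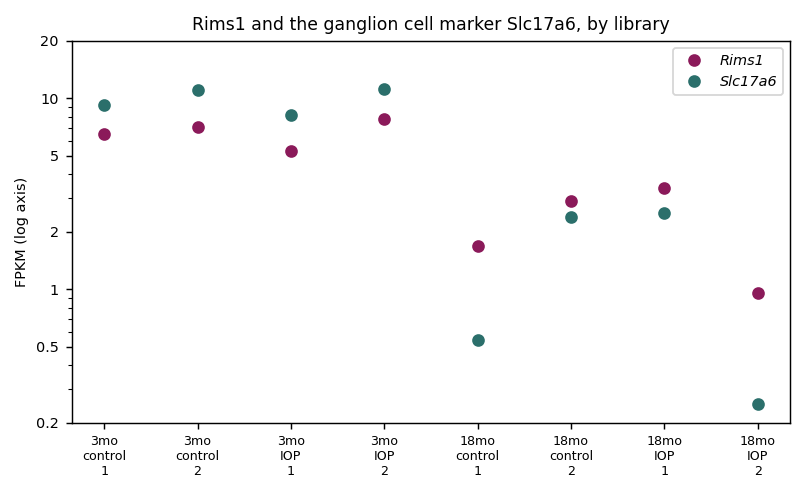
FPKM (log y axis) of Rims1 and of the ganglion cell marker Slc17a6 in the 8 libraries of the first table (x axis). Both genes are between 5 and 12 FPKM in the 3mo libraries, and both are lowest in 18mo IOP library 2 (0.955 and 0.25 FPKM), followed by 18mo control library 1.

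Slc17a7, Cacna1f, Cacnb2, Unc13b and Ctbp2 were set beside relatives in their gene families. Slc17a7 exceeded Slc17a6 between 25.7 and 44.0 times in the 3mo libraries and between 158 and 1686 times in the 18mo libraries, as Slc17a6 was called lower at 18 months (log2 difference -2.61 in control retinas, limma adjusted p = 0.0153). Slc17a8, the transporter of some amacrine cells, stayed between 1.37 and 2.77 FPKM in the first table. Cacna1f exceeded Cacna1d, for another L-type pore found widely in neurons, between 17.1 and 37.2 times in that table and between 5.28 and 12.4 times in the second. Cacnb2 exceeded Cacnb4 between 11.7 and 16.2 times at 3 months and between 15.6 and 82.0 times at 18 months, with Cacnb4 called lower (-1.58, limma adjusted p = 0.0294) at 0.871 and 2.02 FPKM in 18mo control. Unc13b exceeded Unc13a, the major priming factor of brain synapses, between 3.56 and 6.36 times in the first table, and Unc13a was called higher beside it (1.42, limma adjusted p = 0.00909). Ctbp1, which has no ribbon form, was 20.1 and 16.1 FPKM in 3mo control and 25.5 and 29.9 FPKM in 18mo control, higher by 0.60 (limma adjusted p = 0.0307), and the ratio of Ctbp2 to Ctbp1 was between 1.61 and 2.19 in all 8 libraries. Of the 18 paralogues tested, 2 were called higher in control retinas (Unc13a and Cacna1s, 1.12) and 2 lower (Slc17a6 and Cacnb4), near the 11.6% of all tested genes called in each direction. With the length trend removed, no paralogue was called higher and 2 were called lower, where 8.33% and 7.75% of all tested genes were.

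Other genes of the same synapse were counted in the same way, beside the 11.6% of all tested genes that were called higher and the 11.6% called lower between the control groups. Of 10 further ribbon and active zone genes, 2 were called higher at 18 months in control retinas, Cacna2d4 (1.24, limma adjusted p = 0.00689), for the auxiliary subunit that accompanies the Cacna1f channel in photoreceptors, and Ppfia3 (1.02, limma adjusted p = 0.0248), for a liprin scaffold, and none was called lower, so that the count was near that of all genes. Cacna2d4 measured 55.8 and 35.9 FPKM in 3mo control and 107 and 106 FPKM in 18mo control. With the length trend removed, none of the 10 was called higher and 1 was called lower, where 8.33% of all tested genes were called higher and 7.75% lower. Of 13 genes of vesicles and fusion, none was called in either direction, and 3 were higher at the adjusted p alone, near the 26.7% of all tested genes. Their median log2 difference was 0.34 in control retinas and -0.10 in IOP retinas.

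Across the cleft, 8 of 14 genes of the ON bipolar dendrite and the cleft were called higher at 18 months in control retinas and none lower. These include Gpr179 (1.87, limma adjusted p = 0.00671), a scaffold of the signalling complex, Grm6 (1.72, limma adjusted p = 0.00543), the receptor that senses glutamate from photoreceptors, and Trpm1 (1.59, limma adjusted p = 0.00628), the channel that it closes. With the length trend removed, 5 of 14 were called higher and none lower, beside the 8.33% and 7.75% of all tested genes. In IOP retinas 6 of 14 were called higher, where 10.2% of all tested genes were, with Grm6 at 2.17. The summed level of 8 bipolar cell markers was between 350.2 and 570.2 FPKM at 3 months and between 504 and 742 FPKM at 18 months, and 4 of the 8 were called higher in control retinas. Grm6 and Trpm1 are on this list as well as among the 14 genes, so the lists are not separate. The part of bipolar cell share in these values was not tested.

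The genes whose pattern over the 8 libraries was most like the mean of the members were Erc2 (Pearson r = 0.988), Akap6, Rnf150, Trim67 and Cep192 (r between 0.978 and 0.982). Erc2 encodes CAST, an active zone protein that binds RIM and Bassoon. All 5 have transcripts of between 6100 and 10247 bases, and the 8 libraries share the length balance described above and separate by age, so these correlations are given as a description only.

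A single elevation of pressure gave no called member at either age. At 3 months the log2 differences between 3mo IOP and 3mo control ran from -0.31 for Pclo to 0.15 for Ctbp2, 8 of 10 were negative, and the lowest limma adjusted p was 0.948. The signs turned with the control library left out, with 3 of 10 negative and a median of 0.10 without library 1 of 3mo control, and 9 of 10 negative and a median of -0.38 without library 2. Cacna1f was then 0.33 (limma adjusted p = 0.190) and -0.68 (limma adjusted p = 0.0453), the latter under 2-fold. None of 10 members passed, where 0.575% of all tested genes were called (79 of 13731, with 0.568% called higher), and none was under an unadjusted p of 0.05, where 8.51% of all tested genes were. The 95% intervals of single members reached from -1.07 to 0.94, the widest being that of Rims1, so that a 2-fold decrease of that gene lay within its interval. Cacna1f was 41.0 and 20.01 FPKM in 3mo control and 24.7 and 26.0 FPKM in 3mo IOP, the treated values lying between the control values.

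At 18 months 9 of 10 members were lower in 18mo IOP than in 18mo control, with log2 differences from -0.37 for Unc13b to 0.18 for Ctbp2, and none was called (lowest limma adjusted p 0.862), where 0.124% of all tested genes were. Some signs turned with single libraries left out. Without library 2 of 18mo IOP, Rims1 was 0.51 and Rims2 0.04, and without library 1 of 18mo IOP, Stx3 was 0.13. Rims1 was also positive, at 0.12, without library 2 of 18mo control. The share of all tested genes with a negative difference was not computed. Without overlap between the groups, Cacna1f (91.6 and 92.9 against 73.8 and 75.0 FPKM), Unc13b (51.9 and 47.5 against 42.0 and 35.1 FPKM), Slc17a7 (468 and 493 against 397 and 422 FPKM), Cacnb2 and Bsn lay below their controls and Ctbp2 above its controls. Lying below without overlap held for 9.89% of all tested genes and lying above for 36.5%. The median over the members was -0.24, beside 0.09 over all tested genes. The summed level of 10 rod markers was between 18187 and 20443 FPKM in 18mo control and between 13821 and 16295 FPKM in 18mo IOP, and that of 8 cone markers was between 1342 and 1651 against between 683 and 1241 FPKM. The sums of 6 Muller glia markers (between 936 and 1204 against between 1219 and 1359 FPKM) and of 6 markers of microglia and leukocytes (between 51.8 and 60.7 against between 82.2 and 165 FPKM) lay higher in 18mo IOP. No gene of these 4 lists was called, and their part in the member differences was not tested.

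The 2 ages were compared directly by the interaction of IOP with age. None of 10 members passed, and none of the 13731 tested genes did (0% by limma, and 218 genes or 1.59% at an unadjusted p under 0.05, none of them a member). The member interactions lay between -0.24 for Slc17a7 and 0.08 for Stx3, with 95% intervals from -1.54 to 1.29, so a difference between the ages in the response of these genes was not detected with 2 libraries a group.

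After 4 elevations, the channel pore gene Cacna1f had the largest difference among the members, to the low side. Cacna1f was 28.4 and 35.2 FPKM in 4xIOP control and 19.0 and 14.1 FPKM in 4xIOP, a log2 difference of -0.93 (SE 0.26, 95% interval -1.50 to -0.36) and a ratio of 1.91 between control and treated. Its limma adjusted p was 0.0488, but the change was under 2-fold, so no member was called, where 5.45% of all tested genes were called higher and 0.693% lower. At the adjusted p alone, 1.1% of all tested genes were lower. Over 11 other settings its limma adjusted p was between 0.00203, with crossed replicate numbers as a block, and 0.151, with the numbers as labelled. It was over 0.05 in 6 of them. The crossed numbers were chosen after seeing these same data, so that low value carries no weight of its own. Leaving out single libraries gave differences between -1.14 and -0.72.

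Slc17a7 was 151 and 171 FPKM in 4xIOP control and 108 and 92.7 FPKM in 4xIOP, at -0.68 (limma adjusted p = 0.366). Unc13b was 39.98 and 48.6 FPKM against 26.6 and 30.4 FPKM, at -0.62 (limma adjusted p = 0.268), and Rims2 was 53.3 and 49.8 FPKM against 29.0 and 39.3 FPKM, at -0.60 (limma adjusted p = 0.336). The adjusted p of Rims2 was under 0.05 in 3 of 11 other settings (median-of-ratios, quantile and voom, between 0.0166 and 0.0488) and that of Unc13b in 1 (median-of-ratios, 0.0426). With Cacnb2 (27.6 and 30.1 against 19.7 and 25.9 FPKM), these made 5 of 10 members whose treated libraries both lay below both controls, where 12.7% of all tested genes did so. Of these 5, Cacna1f and Unc13b had an unadjusted p under 0.05, as had 15.4% of all tested genes in either direction.

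Ctbp2 (26.5 and 29.3 against 27.02 and 25.8 FPKM), Stx3 (118 and 117 against 85.4 and 129 FPKM) and Rims1 (7.68 and 5.82 against 4.95 and 7.45 FPKM) overlapped between the groups, as did Bsn (0.907 and 1.34 against 2.10 and 1.22 FPKM) and Pclo (3.496 and 3.488 against 4.83 and 3.37 FPKM). Bsn and Pclo had positive differences, 0.40 (95% interval -0.15 to 0.95) and 0.19 (95% interval -0.27 to 0.64), which were 0.10 and -0.05 without library 1 of 4xIOP. The median over the members was -0.25, beside 0.10 over all tested genes.

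The summed markers of photoreceptors and of Muller glia lay lower in the same libraries. Of all tested genes, 5.45% were called higher and 0.693% lower in this comparison. The summed rod markers were between 12244 and 12894 FPKM in 4xIOP control and between 5856 and 8847 FPKM in 4xIOP, with a median log2 difference of -0.89 over the 10 and none called, and the sum of 8 cone markers was between 624 and 634 FPKM against between 243 and 360 FPKM, with 3 of 8 called lower. The summed Muller glia markers were between 741 and 776 FPKM against between 442 and 565 FPKM, while the median log2 difference over the 6 genes was 0.52 and 1 was called higher, so that the sum and the median differed in sign. The summed bipolar markers were between 280.5 and 295 FPKM against between 236 and 289.9 FPKM. Markers of microglia and leukocytes (6 of 6 called higher) and of the lens (5 of 5 tested called higher) rose in 4xIOP, and 4 of 4 tested markers of the retinal pigment epithelium were called lower. The part of these changes in the lower Cacna1f and Slc17a7 was not tested. Of the other synaptic genes, none of the 10 ribbon and active zone genes, none of the 13 vesicle and fusion genes and none of the 18 paralogues was called, and of the 14 postsynaptic genes Gnb3, for a G protein subunit that ON bipolar cells and cones use, was called higher (1.76, limma adjusted p = 0.00575).

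Set side by side, Cacna1f and Unc13b were called higher with age in both comparisons, which are not independent. Both genes had negative differences, not called, after 4 elevations, while Rims1 was lower with age and overlapped between the groups after 4 elevations. The tables were normalized separately and hold different animals, so these values were not tested against each other.

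**Figure D5:**
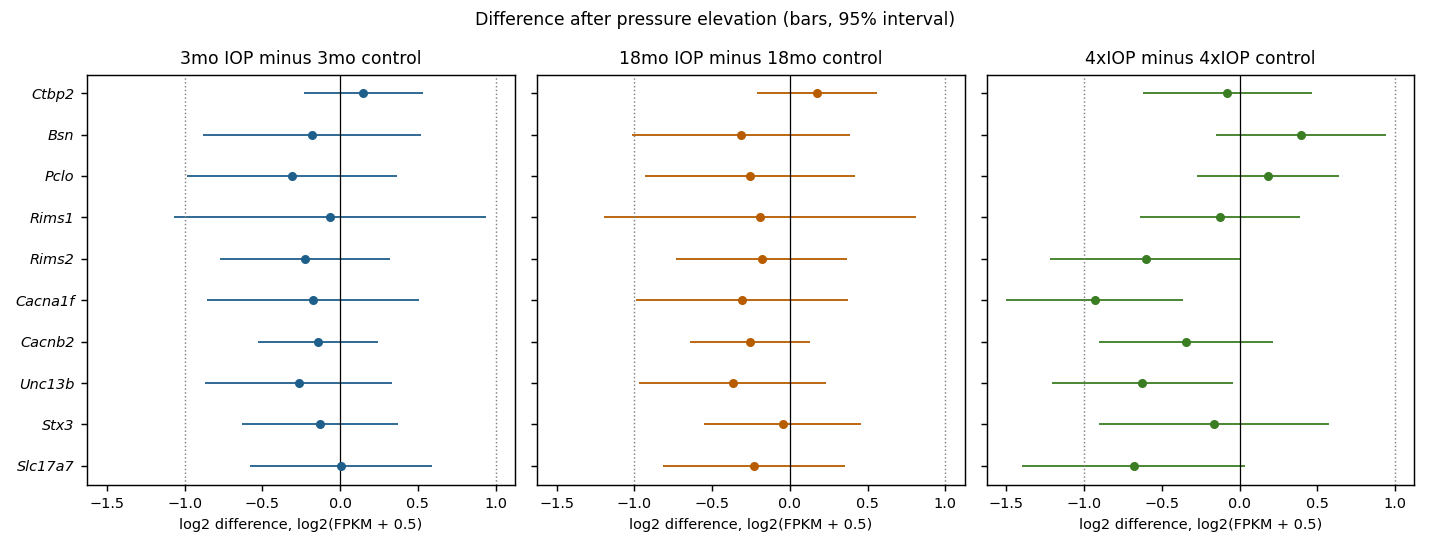
Log2 difference on log2(FPKM + 0.5) (x axis) between pressure-treated and contralateral control retinas for each gene (y axis) after 1 elevation at 3 months (left), 1 elevation at 18 months (middle) and 4 elevations (right); bars are 95% intervals and dotted lines mark 2-fold. Only the intervals of Cacna1f and Unc13b after 4 elevations lie wholly below 0, and all intervals after 1 elevation include 0.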

How the data were processed

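Poly(A) RNA of whole retinas was measured in 12 libraries. Per the labels and the study's methods, the authors extracted RNA in TRIzol, made strand-specific TruSeq libraries, aligned reads to mm10 with STAR 2.7.8a and counted uniquely mapped tags in exons with HOMER, on 1 isoform per locus. The authors deposited FPKM values, with a table for each series, and replicates were not pooled. Multiplied by transcript length and tags, all values checked came to whole reads within 0.1 reads (100%), which gave the depth of each library.

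Values were taken as log2(FPKM + 0.5), genes averaging 0.5 FPKM or more in a table were kept (13731 and 13718), and each table was fitted by group with lmFit and eBayes with a trend (limma 3.58.1, R 4.3.3). Calls needed a Benjamini-Hochberg adjusted p no higher than 0.05 together with a 2-fold change, except for the interaction, which was called on its adjusted p. Fold changes are on the log2(FPKM + 0.5) scale, which understates changes of low genes such as Bsn. The length trend was removed by regressing each library's log2 values on a spline of log2 length with 5 degrees of freedom. The script was tested on simulated data.

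The members, the 4 gene lists and the marker lists were chosen with earlier results of these data known. All 10 members were named, with at most the 3 largest called genes of a list per comparison and paralogues of members, of which some genes are not reported here. Labels call the libraries of a group replicates, and the study's methods describe retinas of single eyes. Same-numbered control and IOP libraries deviated in opposite directions (r = -0.28 at 3 months, -0.53 at 18 months, -0.29 in the second table), so the numbers were not taken as pairs. Alternatives were other pseudocounts, filters and normalizations, voom on the recovered reads, a replicate block, no trend, only the groups compared and leaving out each library.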

Additional observations from a re-analysis of the deposited data

How the results depend on the processing

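The count of members called between 18mo control and 3mo control was 3. It was 5 under quantile normalization (adding Ctbp2 and Slc17a7), 6 at the adjusted p alone, 0 with the length trend removed and library 2 of 3mo control left out (a setting chosen after seeing the data), and within 1.5 times of 3 under the other 11 settings. Leaving out single libraries gave between 1 and 4 called members, 1 in each case without 3mo control 2, 18mo control 1 or 18mo control 2. The count between 18mo IOP and 3mo IOP was 4. It was 2 with no filter on low values and 2 with the length trend removed, and leaving out single libraries gave between 0 and 3. The count after 4 elevations was 0, 1 under median-of-ratios size factors, 1 at the adjusted p alone and between 0 and 1 when single libraries were left out, in each case Cacna1f. Bsn could not be tested there at a mean of at least 2 FPKM. Both comparisons of a single elevation and the interaction kept 0 called members under all settings tried. No member past the adjusted p in the comparisons as reported turned its direction under any setting. Of those that passed it only under other settings, Stx3 was positive with age under quantile normalization in both comparisons, and Cacna1f at 3 months turned with the control library left out. Where a left-out library leaves a group with 1, that library is assumed to vary like the other groups. The cause of these shifts was not tested.

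With the replicate number as a block, 3 members were called between the control groups, 4 between the IOP groups and 0 in the other comparisons, as without it, while 3133 of all genes were called between the control groups. With crossed numbers as the block, chosen after seeing the data because same-numbered libraries deviated in opposite directions, the same comparison had 3 called members and the comparison after 4 elevations had 0. Over all tested genes the number called between 18mo and 3mo control was 3185, between 2208 (length trend removed) and 3945 (voom on the recovered reads), and between 1176 and 4717 without single libraries. It was 3000 between the IOP groups (between 2018 and 3668, and 722 to 2811 without single libraries). It was 79 after 1 elevation at 3 months (between 3 and 125, and 0 to 257 without single libraries), 17 at 18 months (between 0 and 41, and 0 to 144), 0 for the interaction (at most 2) and 843 after 4 elevations (between 475 and 967, and 682 to 798). Median-of-ratios scaling moved the median log2 difference of all genes between the control groups from 0.16 to 0.01, and the split from 1595 higher and 1590 lower to 1059 and 1968. Rims1 and Bsn, the members with the fewest reads, had the largest SEs between the control groups, 0.44 and 0.31. In the comparison after 4 elevations theirs were 0.24 and 0.25, below the 0.26 of Cacna1f.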
